A study of Mus musculus with 6 samples.

Results

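Bdnf, the ligand of the TrkB receptor, was followed together with 6 receptor genes of the neurotrophin and GDNF families: Ntrk2 (TrkB), Ntrk3 (TrkC), Ngfr (p75NTR), Gfra1, Gfra2 and Ret. The 7 genes were chosen by name, with earlier results of these data known, out of 18560 genes in the count table. All 7 were detected. Single cells came from olfactory bulbs of C57BL/6NJ mice that were 14 weeks old, in 6 libraries. There were 3 conditions with 2 libraries each. Control mice had no manipulation by the labels (the study's text also calls the open side of occluded mice a control). Naris occluded mice had a plug in 1 nostril that deprives the bulb on that side of odor input. Olfactory trained mice learned odor discriminations, and by the study's methods they were water deprived and worked for a water reward. No water deprivation is stated for the other groups. The manipulations lasted 6 weeks by the study's methods. Each library pooled 3 mice by its supplement, males in replicate 1 and females in replicate 2, so the mice of a pool cannot be told apart. Some olfactory epithelium was taken with the bulb, so sensory neurons are among the cells.

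Neurotrophins are secreted proteins that keep neurons alive and shape their synapses. BDNF binds TrkB, neurotrophin-3 binds TrkC, and all neurotrophins bind p75NTR. Ligands of the GDNF family bind a GPI-anchored co-receptor, GFRα1 for GDNF and GFRα2 for neurturin, and the pair signals through the RET tyrosine kinase or, without RET, through NCAM. In the olfactory bulb BDNF and TrkB are known for their part in the survival and spine growth of adult-born interneurons, and Bdnf is a gene that neuronal activity induces. Ntrk2 encodes both a kinase form of TrkB and truncated forms without the kinase, which astrocytes are known to make, and counts per gene do not separate them.

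On the GRCm38.p6 assembly, Bdnf lies on chromosome 2 (109674700 to 109727043), Ntrk2 on chromosome 13 (58806472 to 59133970), Ntrk3 on chromosome 7 (78179986 to 78581034) and Ngfr on chromosome 11 (95568818 to 95587698). Gfra1 lies on chromosome 19 (58235581 to 58455946), Gfra2 on chromosome 14 (70890107 to 70979840) and Ret on chromosome 6 (118151748 to 118197744). These are the spans of whole genes, with exons, introns and untranslated regions.

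Levels were read in 50671 cells of 40 deposited clusters, 22 non-neuronal ones from the annotation of the whole bulb and 18 neuronal ones from the annotation of neurons alone. Libraries held 6705 to 10570 annotated cells and 11841160 to 17065083 UMIs (unique molecular identifiers, which count captured RNA molecules), with a median of 1028 to 1723.5 UMIs per cell. The trained library of males had the lowest median depth and the highest median share of mitochondrial UMIs, 14.4% against 9.25% to 11.6% in the others. Most defining markers were highest in the clusters they name: Aqp4 and Slc1a3 were highest in Astro1, Npy and Frzb in OEC4, Pdgfra in OPC, Th in n05-PGC-2, Calb1 in n08-PGC-3, and Cdhr1 in n17-M/TC-3. Cspg4, a marker of precursors, was highest in Mural2, and Crh, a marker of external plexiform interneurons, in n17-M/TC-3. The cluster named n13-AstrocyteLike was placed among neurons by the authors. Across libraries, 2956 cells shared a barcode sequence with a cell of another library. The authors had removed doublets, and no doublet caller was run here. Levels are in CPM, the standard depth-scaled unit, from the UMIs of a gene and all UMIs of the cluster in a library, given as the mean ± SD over all 6 libraries, conditions together. Clusters were made from the same cells, so their order is a description with no test.

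**Figure D1:**
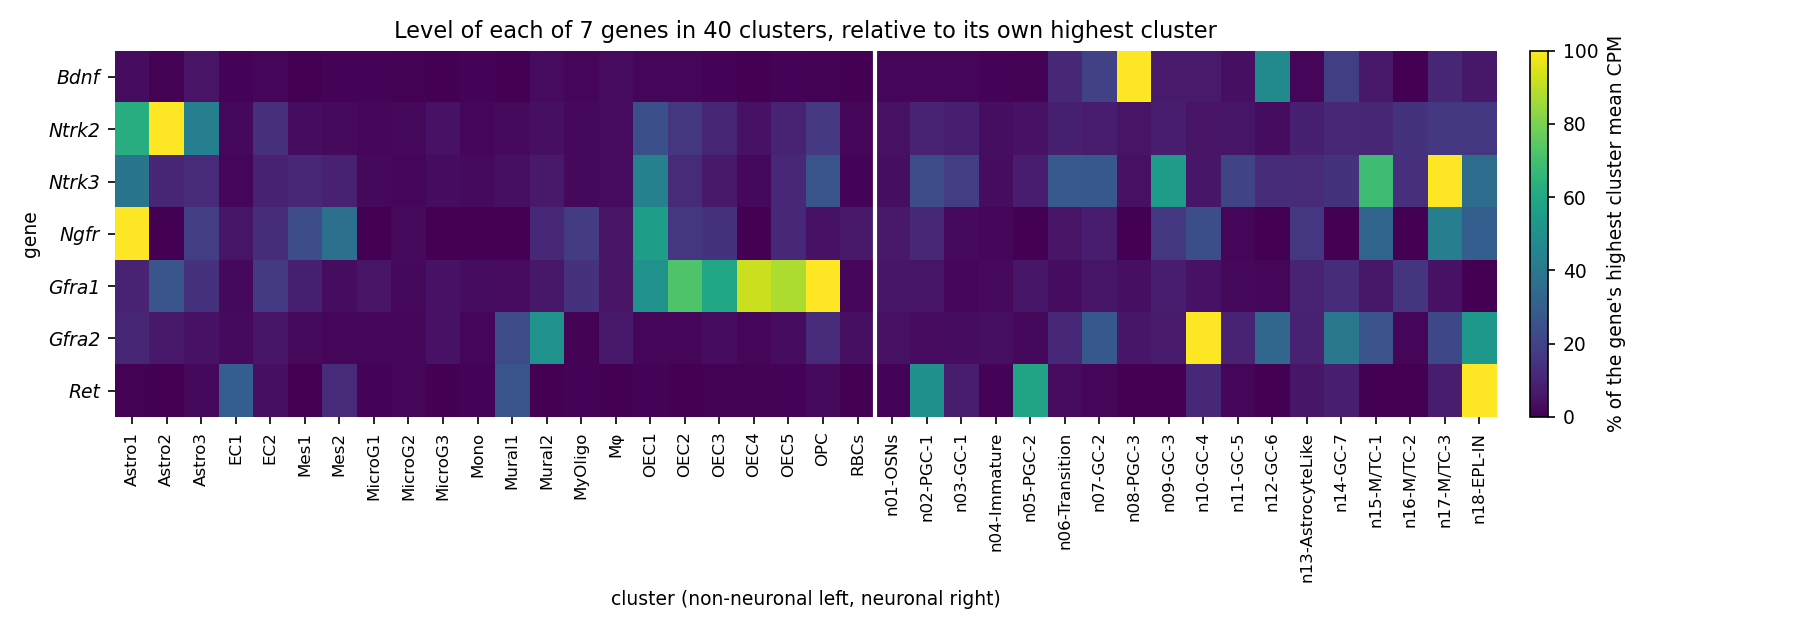
Mean level of each gene in 40 clusters as a percentage of that gene's own highest cluster, with non-neuronal clusters to the left of the white line and neuronal clusters to its right. Ntrk2 was brightest in the astrocyte clusters, Gfra1 in the ensheathing cell clusters and OPC, Bdnf in n08-PGC-3 and Ret in n18-EPL-IN, whose value rested on 8 UMIs.

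Bdnf was a sparse transcript, with 490 UMIs in all, and was highest in the calbindin-rich periglomerular cluster n08-PGC-3. There it reached 154 ± 77.1 CPM (SD, n = 6). The libraries held 180.0 and 275 CPM in control, 102 and 52.4 CPM after occlusion, and 129 and 184 CPM after training. The granule cell cluster n12-GC-6 followed with 73.7 ± 37.7 CPM. In it the values were 19.5 and 63.9 CPM in control, 77.6 and 50.1 CPM after occlusion, and 115 and 116 CPM after training. The large granule cell cluster n07-GC-2 held most UMIs of any cluster, 107, at 30.5 ± 8.24 CPM. The step from n08-PGC-3 to n12-GC-6 held in 6 of 6 libraries and that from n12-GC-6 to n07-GC-2 in 5, both by more than the larger SD. Below them no neighbouring step from n07-GC-2 through n14-GC-7 and n06-Transition to n17-M/TC-3 exceeded the spread.

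Interneurons held most of the Bdnf RNA. The study orders adult-born interneurons along a trajectory with branches called axis A (n02, n03, n05, n08, n10, n11, n12 and n14) and axis B (n06, n07 and n09). Axis A had 37.8% of all Bdnf UMIs with 12.7% of the cells, and axis B 28.6% with 11.8%. Bdnf was seen in 16.5% of n08-PGC-3 cells and 13.9% of n12-GC-6 cells, at median depths of 1704 and 3533 UMIs, and after thinning every cell to 500 UMIs in 3.94% and 3.38%. In MicroG1, the microglia cluster used as a gauge of free RNA for Bdnf, the shares were 0.506% and 0.127% at a median of 2336 UMIs. In immature neurons (n04-Immature) 12 UMIs in 3910 cells gave 1.71 ± 1.23 CPM, and MicroG1 had 1.79 ± 3.29 CPM. Bdnf was not seen in n16-M/TC-2, where 3 UMIs over the 6 libraries would be 12.5 CPM.

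Ntrk2, the receptor for BDNF, was above all an astrocyte transcript in these cells. It was highest in Astro2, the cluster with the highest Gfap (908 CPM), at 1838 ± 273 CPM. Its libraries held 1955 and 1686 CPM in control, 1929.8 and 1786 CPM after occlusion, and 1433 and 2238 CPM after training, so the lowest and the highest value were both from trained mice. Astro1 had 1144 ± 71.0 CPM, Astro3 790.4 ± 94.4 CPM and OEC1, an olfactory ensheathing cell cluster, 449 ± 33.6 CPM. Each of these steps held in 6 of 6 libraries. Astrocytes held 46.9% of 19951 Ntrk2 UMIs with 10.4% of the cells, and ensheathing cells, the glia that wrap olfactory axons, 26.0% with 22.8%. Ntrk2 was seen in 93.2% of Astro2 cells, and in 60.1% after thinning, at a median of 1859.5 UMIs, against 6.94% and 5.05% in MicroG3 at a median of 748 UMIs.

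Below OEC1 came oligodendrocyte precursors (OPC) at 308 ± 65.3 CPM, the mitral and tufted cell cluster n17-M/TC-3 at 300.0 ± 24.2 CPM and external plexiform interneurons (n18-EPL-IN) at 297 ± 107 CPM. These neighbours did not differ beyond their spread. Among neurons n17-M/TC-3 varied little, with 264 to 338 CPM over the 6 libraries. The ensheathing cell clusters spanned a wide range, from OEC1 down to OEC3 at 194 ± 16.6 CPM, OEC5 at 185 ± 36.0 CPM and OEC4 at 89.7 ± 6.66 CPM. The highest level in the clusters used as a gauge of free RNA (red blood cells and microglia) was 91.9 ± 29.4 CPM, in MicroG3, with 136 CPM in its highest library. Ntrk2 exceeded this library in each of the 6 libraries in 13 of 36 other clusters. Sensory neurons (n01-OSNs, 82.8 ± 10.2 CPM) and n04-Immature (64.7 ± 8.46 CPM) were below MicroG3 and above the other gauge clusters, which had 30.3 to 36.4 CPM.

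**Figure D2:**
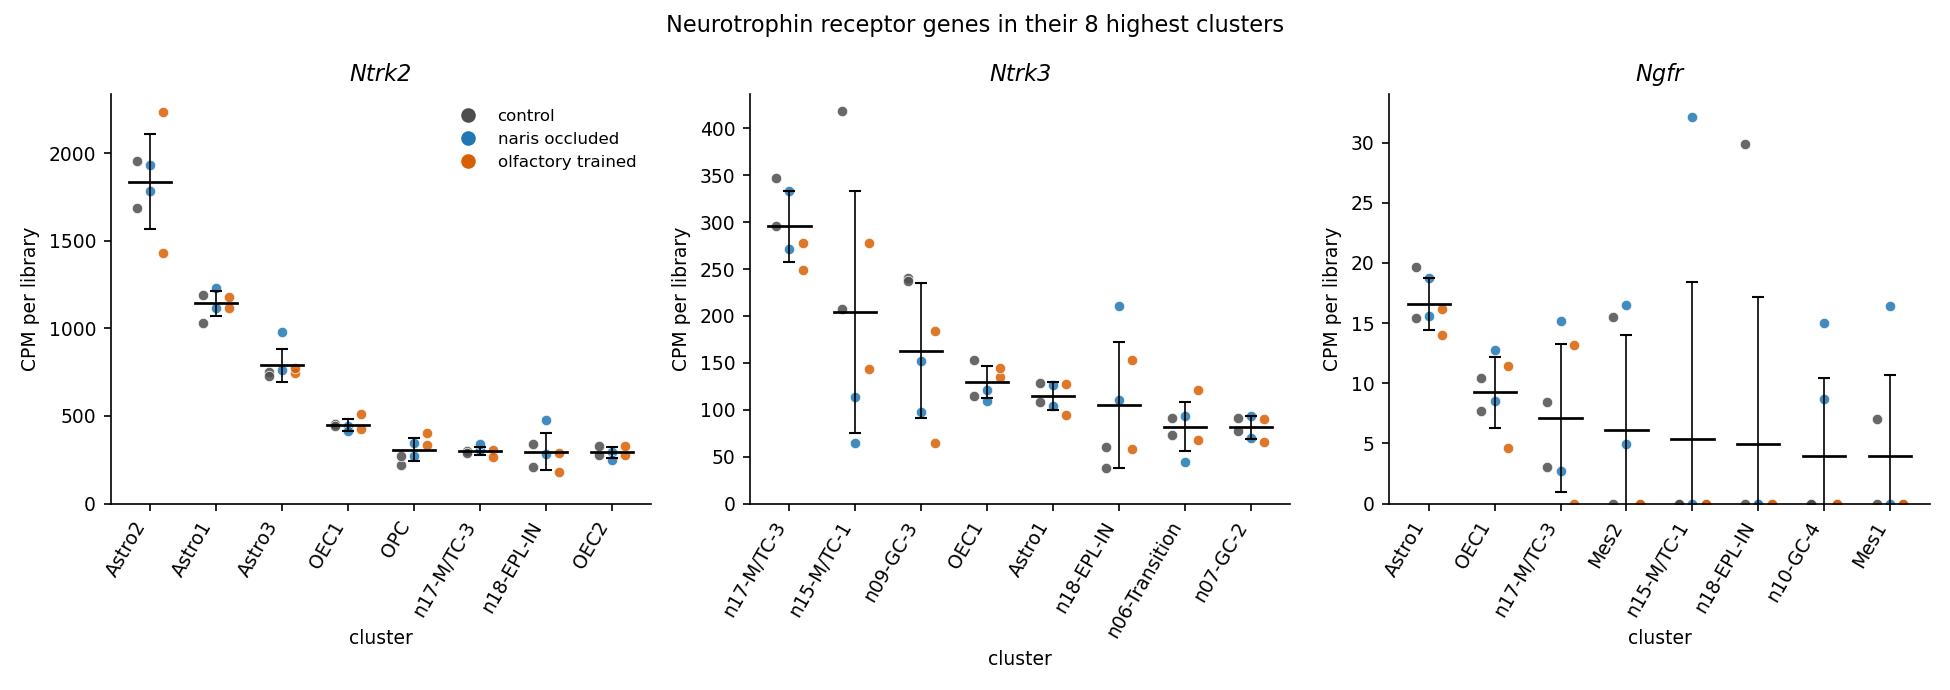
Level of Ntrk2, Ntrk3 and Ngfr in CPM per library in the 8 clusters where each is highest. Points are libraries colored by condition, bars the mean and error bars 1 SD over 6 libraries, cut at 0. Ntrk2 fell stepwise from Astro2 to OEC1, Ntrk3 led in n17-M/TC-3 with 249 to 347 CPM, and Ngfr had its tightest values in Astro1.

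Ntrk3, the receptor for neurotrophin-3, had a different order, led by 1 of 3 clusters of mitral and tufted cells. It reached 296 ± 37.6 CPM in n17-M/TC-3, with 296 and 347 CPM in control, 271 and 333 CPM after occlusion, and 249 and 277 CPM after training. The smaller cluster n15-M/TC-1 had 204 ± 129 CPM from 34 UMIs and the granule cell cluster n09-GC-3 163 ± 71.8 CPM from 64 UMIs. Neither step exceeded the spread. The third mitral and tufted cluster, n16-M/TC-2, had 41.3 ± 51.3 CPM from 12 UMIs, with no UMI in 3 of 6 libraries. OEC1 followed n09-GC-3 with 129.6 ± 17.5 CPM and Astro1 with 115 ± 14.7 CPM. By UMIs, ensheathing cells held 25.4% of the 3828 Ntrk3 UMIs, astrocytes 20.5% and mitral and tufted cells 12.5%, with 22.8%, 10.4% and 2.24% of the cells. Ntrk3, like Ntrk2, was low in OEC4, where 1.31% of cells held a UMI against 24.0% in OEC1. Ntrk3 was seen in 28.2% of n17-M/TC-3 cells and 13.6% after thinning, against 0.946% and 0.841% in MicroG3, at median depths of 865 and 748 UMIs.

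Some mitral and tufted cells held UMIs of both Trk genes. Of 273 cells of n17-M/TC-3 with an Ntrk2 UMI, 112 also had an Ntrk3 UMI (41.0%), where 28.2% of the cluster did. Cells with both were deeper, with a median of 1759.5 UMIs against 865 in the cluster, and the part of depth in this share was not tested. In Astro1, 502 of 2576 cells with Ntrk2 had Ntrk3 (19.5%), close to the share of 19.0% in the cluster.

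Ngfr, the receptor that binds all neurotrophins, was sparse, with 247 UMIs in all 40 clusters. Astro1 had 104 of these, at 16.6 ± 2.17 CPM, and each library lay between 14 and 19.7 CPM. OEC1 had 47 UMIs at 9.25 ± 2.95 CPM, lower than Astro1 in 6 of 6 libraries. From OEC1 downwards neighbours did not differ beyond their spread. In OEC4, the largest ensheathing cell cluster with 3436 cells, no UMI was seen, which allows a level of up to 0.379 CPM over the 6 libraries and a share of up to 0.0873% of cells with a UMI, not of cells that express the gene. Astro2 also had none in 336 cells, which allows up to 4.59 CPM. Ngfr was seen in 2.75% of Astro1 cells and 0.607% after thinning, against 0.457% and 0.457% in red blood cells, from 1 of 219 cells. Of 86 Astro1 cells with Ngfr, 80 had an Ntrk2 UMI (93.0%), and 82.3% of the cluster had one. Cells with both had a median of 2804.5 UMIs against 1851.5 in the cluster.

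Gfra1, the co-receptor for GDNF, marked ensheathing cells and oligodendrocyte precursors. Ensheathing cells held 77.5% of its 1940 UMIs with 22.8% of the cells. OPC had 91.0 ± 16.7 CPM, OEC4 83.7 ± 7.79 CPM, OEC5 79.9 ± 18.7 CPM, OEC2 65.9 ± 15.8 CPM, OEC3 53.5 ± 7.30 CPM and OEC1 46.7 ± 12.1 CPM. No 2 neighbours among these 6 differed beyond their spread, and the drop to Astro2 at 23.9 ± 19.6 CPM did, in 5 of 6 libraries. In OEC4 the values were 86.4 and 89.0 CPM in control, 84.5 and 74.5 CPM after occlusion, and 74.3 and 93.4 CPM after training, so the conditions overlapped. Ntrk2 had its highest level among ensheathing clusters in OEC1, where Gfra1 was lowest, and its lowest in OEC4. Gfra1 was seen in 16.8% of OEC4 cells and 4.02% after thinning, against 1.27% and 0.127% in MicroG1.

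Gfra2, the co-receptor for neurturin, was highest in 1 granule cell cluster and was also found in mural cells, the contractile cells of small vessels. It was highest in n10-GC-4, at 219.9 ± 109 CPM. The libraries held 178 and 278 CPM in control, 405 and 174 CPM after occlusion, and 86.9 and 196 CPM after training. In n18-EPL-IN it had 117 ± 125 CPM from 21 UMIs, with 351 CPM in 1 occluded library and no UMI in 1 trained library. Mural2 had 112.7 ± 36.8 CPM from 135 UMIs, and Mural1 50.2 ± 22.1 CPM. Among granule cells n14-GC-7 had 87.9 ± 54.4 CPM, n12-GC-6 72.3 ± 16.3 CPM and n07-GC-2 60.8 ± 11.7 CPM. The other granule clusters were lower. Cluster n11-GC-5 had 21.7 ± 4.68 CPM, n09-GC-3 had 16.2 ± 15.9 CPM, and n03-GC-1, at 6.96 ± 4.75 CPM, had a mean below the 10.98 ± 7.89 CPM of MicroG3. As classes, mitral and tufted cells had 40.4 ± 17.4 CPM and axis A neurons 28.9 ± 3.86 CPM. Neighbours from n10-GC-4 to n17-M/TC-3 in this order did not differ beyond their spread. Gfra2 was seen in 29.5% of n10-GC-4 cells and 6.84% after thinning, and in 14.8% and 5.33% of Mural2 cells, against 1.05% and 0.841% in MicroG3.

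Ret, the signaling kinase of the GDNF family, had most of its UMIs in a pair of periglomerular clusters and an endothelial one. Periglomerular clusters n05-PGC-2, rich in Th, and n02-PGC-1 had 32.3 ± 22.2 CPM and 27.8 ± 7.89 CPM, from 29 and 58 UMIs. The endothelial cluster EC1 had 16.6 ± 6.97 CPM from 74 UMIs, lower than n02-PGC-1 in 5 of 6 libraries. The higher mean in n18-EPL-IN, 55.2 ± 74.8 CPM, rested on 8 UMIs, with none in 3 of the libraries. Axis A neurons held 43.0% of 249 Ret UMIs and endothelial cells 30.9%. Ret was seen in 7.43% of n05-PGC-2 cells, 5.40% of n02-PGC-1 cells and 2.77% of EC1 cells (1.86%, 1.25% and 1.19% after thinning), against 0.221% and none in MicroG2. Within the same kinds of cells other clusters differed: the periglomerular n08-PGC-3 had no Ret UMI in 279 cells, which allows up to 6.22 CPM, and EC2 had 3 UMIs (2.16 ± 2.40 CPM). Mural1 had 14.4 ± 6.16 CPM from 8 UMIs, in 5.06% of 158 cells at a median of 3508 UMIs (0.633% after thinning), and was also high in the endothelial markers Flt1 and Pecam1 (1561 and 328 CPM, second to EC1), whose part in its Ret level was not tested. In Mural2, no Ret UMI was seen in 769 cells, which allows up to 2.56 CPM, and the 5 ensheathing cell clusters had 1 or 2 Ret UMIs each.

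**Figure D3:**
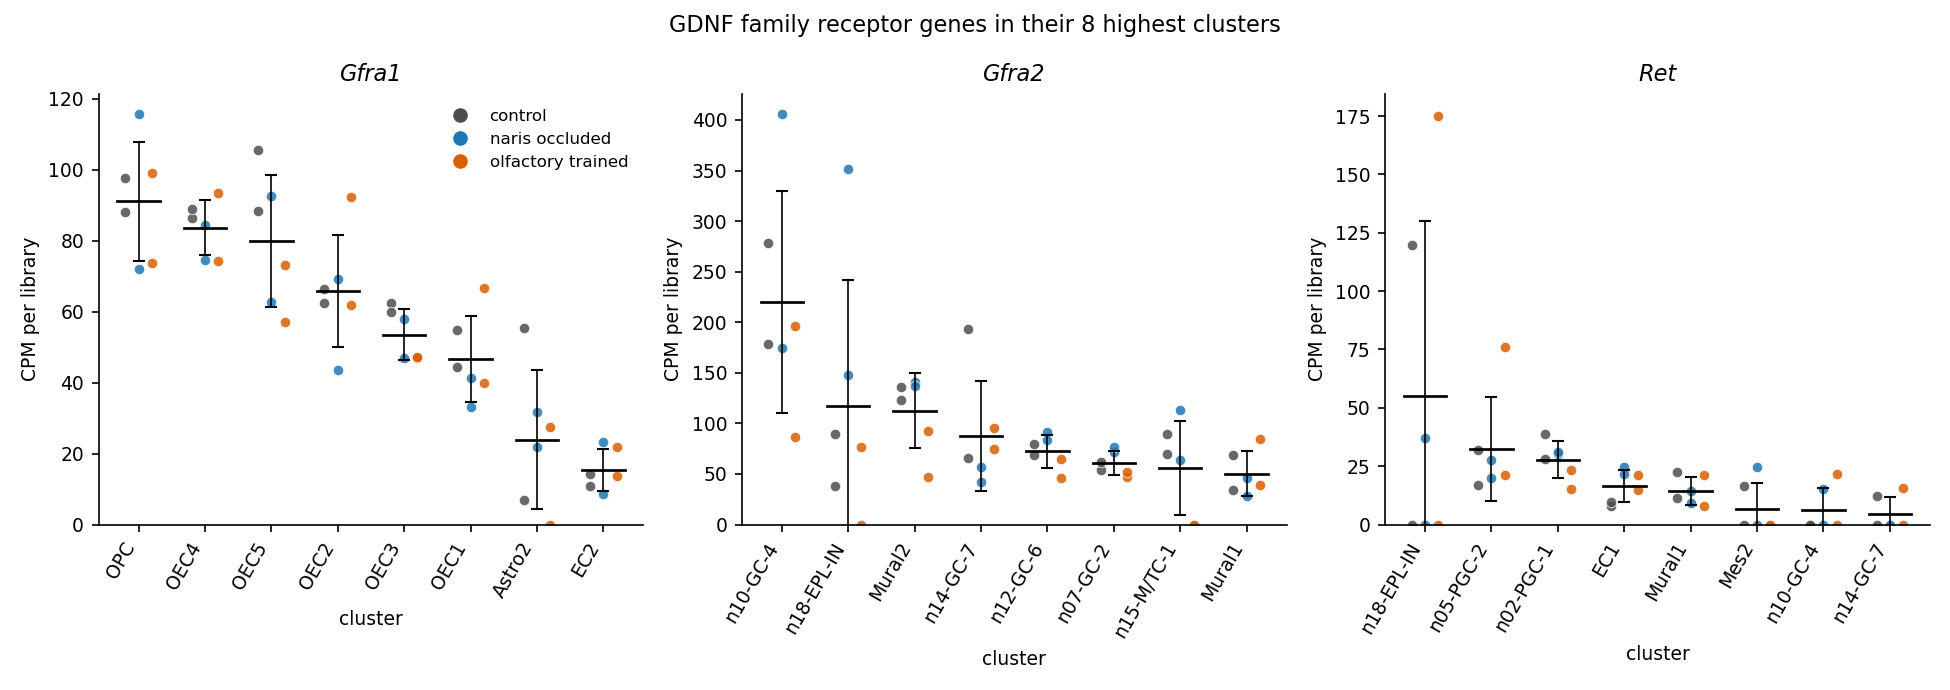
Level of Gfra1, Gfra2 and Ret in CPM per library in the 8 clusters where each is highest. Points are libraries colored by condition, bars the mean and error bars 1 SD over 6 libraries, cut at 0. Gfra1 formed a group of 6 glial clusters from 46.7 to 91.0 CPM, and Ret in n18-EPL-IN was spread from 0 to 175 CPM.

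Ret and its co-receptors were rarely seen in the same cell. In EC1, 70 cells had a Ret UMI, 0 of these had Gfra1 and 2 had Gfra2. In n02-PGC-1, 56 cells had Ret and 0 had either co-receptor as well. In n05-PGC-2, 28 cells had Ret, 1 with Gfra1 and 0 with Gfra2. The co-receptors were themselves seen in 0.357% to 1.33% of the cells of these clusters, so few cells with both could be seen at this depth. Over the 40 clusters, the Pearson correlation of log2(CPM + 1) between Ret and Gfra1 was -0.35 and between Ret and Gfra2 0.19, while Ntrk2 and Ntrk3 had 0.67. Clusters share libraries and differ in depth, so these values are descriptions.

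Among the other ligands Gdnf, Pspn and Ntf3 were scarce, and Nrtn and Artn were found in interneurons. Gdnf had 1 UMI each in Mural2 and n05-PGC-2, its highest clusters, and Pspn, which encodes persephin, 1 UMI each in n02-PGC-1 and n07-GC-2. Ntf3, the TrkC ligand, was highest in Mural2 with 7 UMIs (5.07 ± 8.0 CPM). Nrtn, which encodes neurturin, was highest in n10-GC-4 at 56.9 ± 31.1 CPM, the cluster where its co-receptor Gfra2 was also highest, and in n05-PGC-2 at 55.2 ± 30.3 CPM. These clusters did not differ in Nrtn beyond their spread, and Gfra2 was seen in 1.33% of n05-PGC-2 cells. Artn, which encodes artemin, was highest in n12-GC-6 at 22.3 ± 20.2 CPM and n11-GC-5 at 21.5 ± 7.22 CPM, while its co-receptor Gfra3 had 3 UMIs, in OEC1.

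Other receptors of these ligands had orders of their own. Ncam1, which GFRα1 can use in place of RET, was highest in OEC4 (1560 ± 131 CPM) and OEC2 (1550 ± 112 CPM), clusters where Gfra1 was high and Ret had few UMIs. Gfra4 was highest in n16-M/TC-2 (145 ± 88.3 CPM) and n08-PGC-3 (134 ± 54.2 CPM), the cluster with the highest Bdnf. Sorcs3, a receptor of the sortilin family, was also highest in n08-PGC-3, at 271 ± 100.1 CPM. Sort1, whose product binds proneurotrophins with p75NTR, was highest in myelinating oligodendrocytes (158 ± 23.4 CPM). Sorcs1 was highest in OEC1 (68.9 ± 13.1 CPM) and Sorcs2 in n18-EPL-IN (189 ± 98.2 CPM). Lingo1 and Rtn4r, partners of p75NTR in the Nogo receptor complex, were both highest in n17-M/TC-3, at 227 ± 43.4 and 61.8 ± 17.1 CPM. Plat, the tissue plasminogen activator that takes part in the cleavage of pro-BDNF, was highest in OEC4 at 525 ± 50.8 CPM.

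The annotation of the whole bulb placed the 22501 neuronal cells, with the 755 neurons outside the neuronal annotation among them, in other clusters. Bdnf was highest in N12 (49.9 ± 25.3 CPM, 80 UMIs) and then N8 (31.4 ± 8.25 CPM). Ntrk3 was highest in N15 (314 ± 60.5 CPM) and N14 (191 ± 47.6 CPM), and Ret had 26.2 ± 16.8 CPM in N16. Gfra1 had 59.3 ± 39.3 CPM in N2, a mean above those of OEC3 and OEC1. This rested on 14 UMIs in 68 cells, with no UMI in 1 control library.

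Genes most like each member over the 40 clusters were ranked by the Pearson correlation of log2(CPM + 1), among 12823 genes. For Ntrk2 these were Bcan, the proteoglycan brevican of astrocytes (r = 0.84), Rcn2 (0.81) and Acsl3 (0.81). For Gfra1 they were Gpt2 (0.86), Rassf10 (0.86) and Sox10 (0.86), the transcription factor of ensheathing cells and oligodendrocytes. Ntrk3 was nearest to Ptprs (0.83), a receptor phosphatase that binds TrkC, Tusc3 (0.81) and Lrfn3 (0.81). Bdnf was nearest to Pgbd5 (0.79), the protocadherin Pcdh10 (0.78) and Gpr83 (0.77), each also highest in n08-PGC-3. Gfra2 was nearest to Serpini1 (0.80), an inhibitor of tissue plasminogen activator, and also near Tpbg (0.71). Ret (Igfbp3, 0.70, Syndig1l, 0.65, and Fibcd1, 0.64) and Ngfr (Islr, 0.60, and AI464131, 0.59) had weaker neighbours. These values describe 40 clusters that share libraries.

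The conditions address how gene expression within cell types differs with olfactory experience. In trained mice such experience cannot be told apart from water deprivation, reward and the task itself. UMIs were summed per library and cluster, 38 clusters with at least 10 cells in every library were fitted, and edgeR's quasi-likelihood test compared the conditions with Benjamini-Hochberg adjustment over all genes of a cluster. Nothing in the labels says that the 2 libraries of a condition are more than 2 pools. The p-values measure the spread between these pools, which were of males and of females, so any sex difference is part of it. After the filter on low counts, 72 pairs of member and cluster were tested: Ntrk2 in 33 clusters, Ntrk3 in 16, Gfra2 in 9, Gfra1 in 7, Bdnf in 3, Ngfr in 2 and Ret in 2.

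At the level of single clusters no change of the 7 genes passed the test. With edgeR, 0 of 72 pairs had an adjusted p under 0.05 in occluded against control, trained against control and trained against occluded, where 0.068%, 0.0932% and 0.175% of all 178070 pairs of gene and cluster did. DESeq2 also called 0, of 69, 72 and 70 pairs to which it gave an adjusted p. At an unadjusted p under 0.05 the members had 9, 8 and 4 pairs, or 12.5%, 11.1% and 5.56%, and all features had 4.78%, 5.73% and 7.21%. The median log2 fold change over the 72 pairs was -0.06, -0.09 and -0.03, and over all features 0.00 in each comparison. In bulk sums of a cluster, fewer cells that make a transcript and less of it per cell cannot be told apart.

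In clusters where the receptor genes were high, their differences from control did not pass the test. Ntrk2 in Astro1 differed by 0.06 on the log2 scale in occluded against control (SE 0.12) and by 0.04 in trained against control (SE 0.12). Gfra1 in OEC4 had log2 fold changes of -0.16 (SE 0.17) and -0.09 (SE 0.18), and Ntrk3 in n17-M/TC-3 of -0.20 (SE 0.24) and -0.29 (SE 0.26). Ngfr in Astro1 had -0.07 (SE 0.33) and -0.26 (SE 0.35), and Ret in n02-PGC-1 had -0.17 (SE 0.47) and -0.79 (SE 0.51). Gfra2 in n10-GC-4 had 0.31 (SE 0.42) and -0.62 (SE 0.52), and the latter ranged from -1.37 to -0.22 with 1 library left out.

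Receptor pairs at an unadjusted p under 0.05, none of them past the adjusted threshold, included Ret in EC1, Gfra2 in Mural2 and Ntrk2 in OPC, picked after their values were seen. Ret in EC1 had 7.73 and 9.49 CPM in control, 24.5 and 21.6 CPM after occlusion and 14.8 and 21.4 CPM after training. Both control libraries were below each of the others, with a log2 fold change of 1.40 in occluded (SE 0.45) and 1.05 in trained (SE 0.46) against control, and adjusted p-values of 0.817 and 0.506 by edgeR. Both comparisons use the same control libraries. Gfra2 in Mural2 had 136 and 123 CPM in control, 141 and 137 CPM after occlusion, and 47.1 and 92.2 CPM after training. Trained libraries were lowest, with log2 fold changes of -0.92 against control (SE 0.35, adjusted p 0.742 by edgeR) and -0.99 against occluded (SE 0.35, adjusted p 0.656 by edgeR). Ntrk2 in OPC was 221 and 274 CPM in control, 347 and 269 CPM after occlusion, and 335 and 402 CPM after training (log2 fold change in trained against control 0.56, SE 0.20, edgeR adjusted p 0.816).

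Bdnf had its lowest values after occlusion in n08-PGC-3 and its highest after training in n12-GC-6. Both occluded libraries of n08-PGC-3 lay below every control and trained library (log2 fold change against control -1.59, SE 0.44, edgeR unadjusted p 0.000954, adjusted p 0.244). In n12-GC-6 both trained libraries lay above each of the others (log2 fold change against control 1.60, SE 0.54, edgeR unadjusted p 0.00394, adjusted p 0.561). In the axis B cluster n07-GC-2 the libraries of the conditions overlapped, at 15.0 to 39.8 CPM, with a log2 fold change of -0.85 in occluded against control (SE 0.39, edgeR unadjusted p 0.0367, adjusted p 1.00). In that comparison n12-GC-6 had 0.76 (SE 0.60, edgeR adjusted p 1.00). The values in n08-PGC-3 and n12-GC-6 rest on 4 to 25 UMIs per library.

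**Figure D4:**
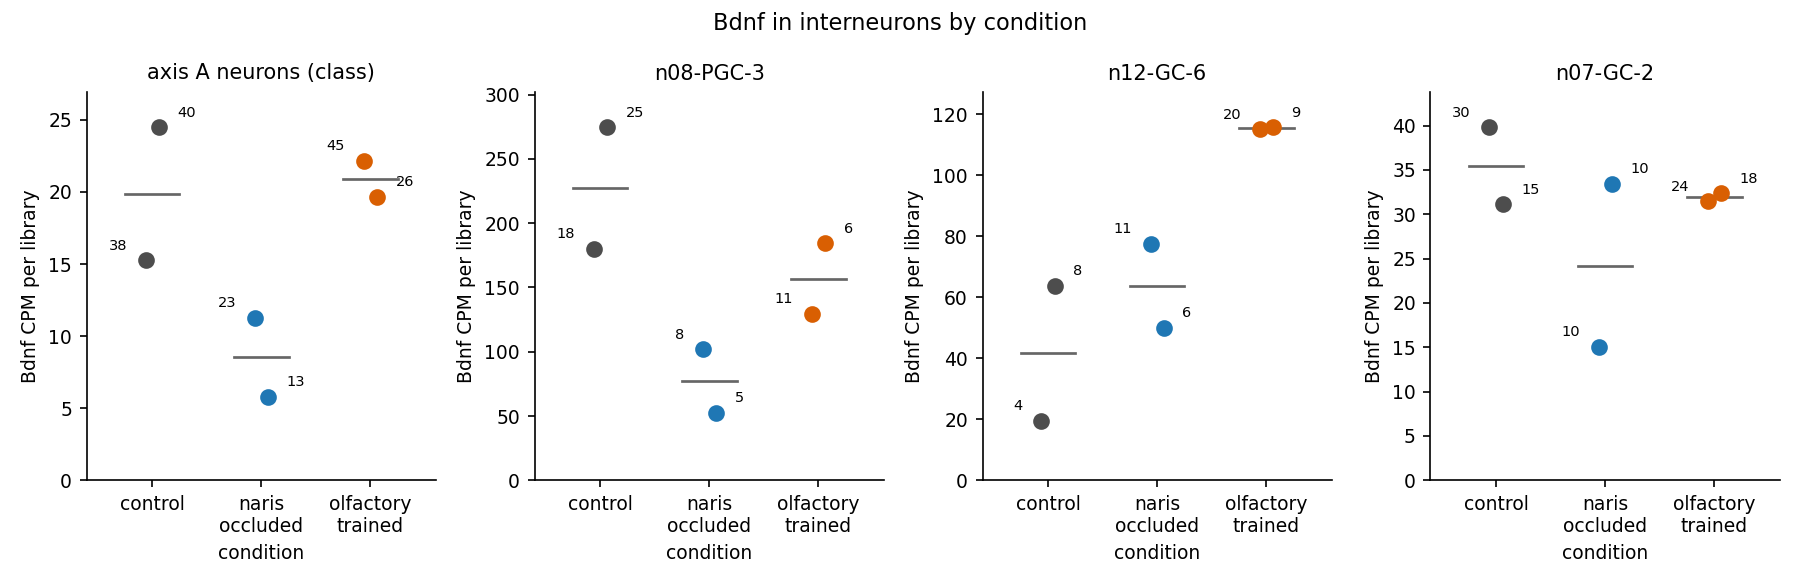
Bdnf level in CPM per library (points, 2 per condition) with the condition mean (bars) in axis A neurons summed as a class and in the 3 clusters where Bdnf was tested, and with the number of Bdnf UMIs beside each point. Occluded libraries lay below trained libraries in axis A neurons, n08-PGC-3 and n12-GC-6, and overlapped them in n07-GC-2.

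Summed over the 6426 axis A neurons, Bdnf was higher after training than after occlusion. The values were 15.2 and 24.5 CPM in control (38 and 40 UMIs), 11.3 and 5.81 CPM after occlusion (23 and 13 UMIs), and 22.2 and 19.7 CPM after training (45 and 26 UMIs). Both occluded libraries were the lowest, and control and trained libraries overlapped. The log2 fold change in trained against occluded was 1.35 (SE 0.33, edgeR adjusted p 0.0249). It was the 1 pair called of 31 pairs of member and cell class in this comparison, over 9 classes, where 0.378% of all 79539 pairs were called and 1.53% of the 11180 genes in axis A neurons. In occluded against control (log2 fold change -1.22, SE 0.32, edgeR adjusted p 0.156) and trained against control (0.13, SE 0.28, edgeR adjusted p 0.964), 0 of 31 pairs were called, where 0.0779% and 0.0867% of all pairs were. At an unadjusted p under 0.05 each of these had 2 of 31 pairs and trained against occluded 1, where 4.97%, 6.5% and 8.74% of all pairs were under it in the order occluded against control, trained against control, trained against occluded. In the same order, DESeq2 called 0 of the 31, 27 and 23 member pairs to which it gave an adjusted p. It called 13, 42 and 113 of all 79539 pairs.

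The call rested on few molecules and changed with single libraries. Without a library, the lone library of its condition is assumed to vary like those of the other conditions. The call was lost without occluded replicate 2 (log2 fold change 0.95, edgeR adjusted p 0.252), without either trained library (1.22 and 1.45, edgeR adjusted p 0.489 and 0.0694) and with cells of at least 1000 UMIs alone (1.28, edgeR adjusted p 0.0763). DESeq2 gave 1.34 (SE 0.48, unadjusted p 0.00536) and no adjusted p.

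The makeup of the class differed between libraries, and its part in the Bdnf difference was not tested. Cells of n14-GC-7 ranged from 36 to 222 per library and those of n03-GC-1 from 139 to 587. The study reports that the proportions of n03-GC-1 and n08-PGC-3 rose with occlusion and fell with training. For n14-GC-7 it reports the reverse. A Bdnf UMI was seen in 0.313% of n03-GC-1 cells, 1.62% of n14-GC-7 cells and 16.5% of n08-PGC-3 cells. With each cluster of axis A weighted equally, Bdnf was 34.7 and 49.3 CPM in control, 24.9 and 18.3 CPM after occlusion, and 35.8 and 46.2 CPM after training. The share of n08-PGC-3 among axis A cells was 3.94% and 6.15% in control, 4.16% and 4.71% after occlusion, and 4.39% and 2.33% after training. The share of n12-GC-6 was 4.16% and 3.83% in control, 3.75% and 2.73% after occlusion, and 4.31% and 3.21% after training. With both clusters left out, a choice made after the data were seen, Bdnf was 7.32 and 4.94 CPM in control, 2.2 and 0.989 CPM after occlusion, and 7.91 and 9.08 CPM after training, and the log2 fold change in trained against occluded was 2.40 (SE 0.62, edgeR adjusted p 0.0363), from 2 to 16 UMIs per library. Without n08-PGC-3 alone it was 1.59 (edgeR adjusted p 0.0194), and without n12-GC-6 alone 1.53 (edgeR adjusted p 0.0467). In axis B neurons Bdnf was 31.9 and 24.7 CPM in control, 15.9 and 23.2 CPM after occlusion, and 25.3 and 25.7 CPM after training (trained against occluded 0.46, SE 0.35, edgeR adjusted p 0.792). Both occluded libraries were the lowest there too. In astrocytes Bdnf was 4.14 and 4.04 CPM in control, 7.04 and 3.58 CPM after occlusion, and 7.55 and 8.51 CPM after training. Trained libraries thus lay above occluded ones in astrocytes as well, without a call. The difference between the axes was not tested.

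Of 44 other genes listed for these pathways, 42 were in the table and 35 were tested in at least 1 cluster. No listed ligand, receptor or adaptor passed the test in any cluster. With edgeR, 0 of 5 ligand pairs, 0 of 92 receptor pairs and 0 of 201 adaptor pairs were called in each comparison, where 0.068%, 0.0932% and 0.175% of all pairs were. The unadjusted p was under 0.05 in 1, 0 and 2 ligand pairs, 7, 2 and 9 receptor pairs, and 5, 5 and 10 adaptor pairs for occluded against control, trained against control and trained against occluded, where 4.78%, 5.73% and 7.21% of all pairs were under it. Of 38 pairs of the pro-neurotrophin processing genes, 0, 1 and 1 were called and 5, 5 and 2 had an unadjusted p under 0.05. The called gene was Plat, a protease. Plat rose after training in EC1, with 211 and 225 CPM in control, 252 and 306 CPM after occlusion, and 520.2 and 435 CPM after training. Its log2 fold change was 1.15 against control (SE 0.16, edgeR adjusted p 0.000806) and 0.80 against occluded (SE 0.16, edgeR adjusted p 0.0180).

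Genes that Trk signaling or neuronal activity induces, 9 of them tested, supplied the other calls, with 6, 2 and 9 of 135 pairs by edgeR's adjusted p in the 3 comparisons (0.068%, 0.0932% and 0.175% of all pairs). The list was made with earlier results of these data known, so its share of calls is no independent test. The number of calls also changed with the settings and with a library left out, as given at the end. DESeq2 called 0, 1 and 2 of all 471 pairs of the list, and 30, 25 and 53 of all 178070 pairs. In occluded against control 2 rose and 4 fell, in trained against control 2 rose, and in trained against occluded 8 rose and 1 fell. The median log2 fold change of the 135 pairs was -0.06, 0.29 and 0.30, against 0.00 over all features in each. Vgf, which encodes a secreted neuropeptide precursor, fell after occlusion in n08-PGC-3, from 220.0 and 264 CPM in control to 63.8 and 0 CPM, with 259 and 276 CPM after training (log2 fold change -3.02 against control, SE 0.56, edgeR adjusted p 0.00828, and 3.14 in trained against occluded, SE 0.60, edgeR adjusted p 0.0187). Vgf also fell after occlusion in n17-M/TC-3 (-2.03, edgeR adjusted p 0.0465) and n18-EPL-IN (-1.35, edgeR adjusted p 0.0309). In these clusters both trained libraries were also below both control libraries, without passing the test (-0.97, edgeR adjusted p 0.950, and -1.06, edgeR adjusted p 0.261). Vgf was higher in trained than in occluded in n11-GC-5 (1.12, edgeR adjusted p 0.0329).

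Homer1, a scaffold protein of the synapse, and Egr1, an immediate early transcription factor, were higher in trained than in occluded in granule cells, and Egr1 also in n13-AstrocyteLike. Homer1 had log2 fold changes of 1.19 in n11-GC-5 (edgeR adjusted p 0.00140) and 1.54 in n12-GC-6 (edgeR adjusted p 0.0203), and Egr1 of 1.18 in n11-GC-5 (edgeR adjusted p 0.00420), 1.37 in n12-GC-6 (edgeR adjusted p 0.0173) and 2.09 in n13-AstrocyteLike (edgeR adjusted p 0.0144). The study calls n13-AstrocyteLike an ambiguous neuronal type. It had 201 to 1202 cells per library, with medians of 656 UMIs and 30.5% mitochondrial UMIs per cell. Homer1 in n11-GC-5 was also higher in trained than in control (1.06, edgeR adjusted p 0.0246). Among the 9 classes, Homer1 was also higher in both trained than in both occluded libraries in some without a call. Its level was 27.9 and 13.9 CPM in trained against 7.70 and 5.14 CPM in occluded microglia, 39.8 and 21.7 against 14.8 and 12.9 CPM in astrocytes, 32.9 and 27.0 against 19.7 and 14.01 CPM in ensheathing cells, 30.7 and 24.9 against 5.92 and 15.4 CPM in mesenchymal cells, and 79.4 and 64.3 against 23.8 and 32.6 CPM in mitral and tufted cells. The part of this in the granule cell result was not tested. Dusp6, which dampens ERK signaling, rose after training in EC1 (1.25 against occluded, edgeR adjusted p 0.000720, and 0.75 against control, edgeR adjusted p 0.0446). Fos went both ways after occlusion. It rose in OPC (1.48, edgeR adjusted p 0.0326) and EC2 (3.25, edgeR adjusted p 0.00455), fell in n17-M/TC-3 (-2.27, edgeR adjusted p 0.0408), and was lower in trained than in occluded in EC2 (-2.91, edgeR adjusted p 0.0318). In EC2, at a median of 750.5 UMIs per cell, Fos had 0 and 23.7 CPM in control and 69.9 and 135 CPM after occlusion. Over all endothelial cells these conditions overlapped, with 140 and 190 CPM in control and 184 and 317 CPM after occlusion. Spry1, Spry2, Spry4 and Arc had no call in these comparisons.

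**Figure D5:**
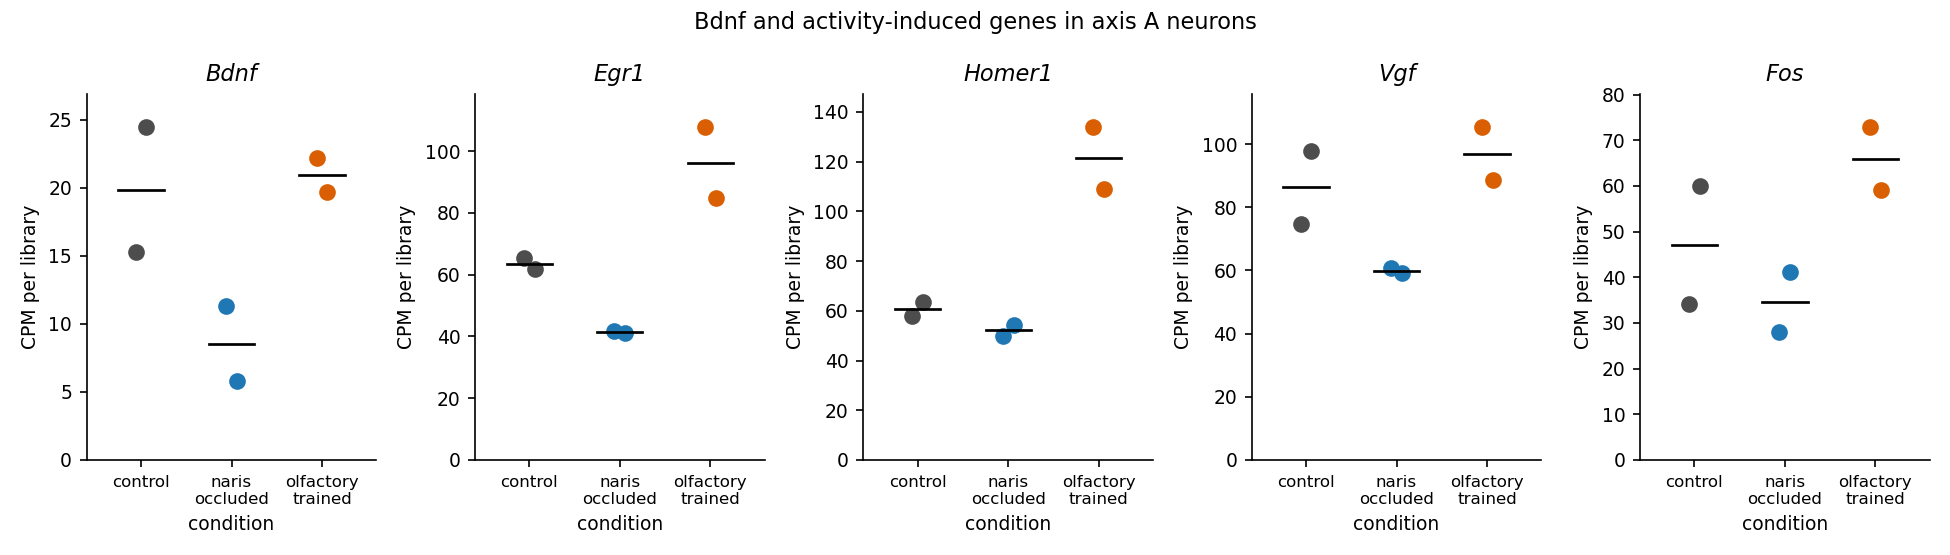
Level in CPM per library (points, 2 per condition) and condition mean (bars) of Bdnf and 4 induced genes in axis A neurons. In each of the 5 genes both trained libraries lay above both occluded libraries, and only for Homer1 and Egr1 did both also lie above both control libraries. All 5 genes were called in trained against occluded in this class, so their shared separation is no independent support.

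In axis A neurons as a class, Egr1, Homer1, Vgf and Fos were higher in trained than in occluded, as was Bdnf. Over all classes, 7 of 58 pairs of induced genes were called in this comparison and 2 of 58 in trained against control. Of all pairs, 0.378% and 0.0867% were called, and 1.53% of the 11180 genes in axis A neurons in trained against occluded. The list was made with earlier results of these data known, so its share of calls is no independent test here either. Egr1 was 65.4 and 61.8 CPM in control, 41.7 and 41.1 CPM after occlusion, and 108 and 84.7 CPM after training (trained against occluded 1.27, SE 0.16, edgeR adjusted p 1.34e-05). Homer1 was 57.8 and 63.6 CPM in control, 50.1 and 54.1 CPM after occlusion, and 134 and 109 CPM after training (1.27, SE 0.15, edgeR adjusted p 6.49e-06). Vgf differed by 0.74 (SE 0.16, edgeR adjusted p 0.00952) and Fos by 0.97 (SE 0.21, edgeR adjusted p 0.0114). Against control, training raised Homer1 (1.01, edgeR adjusted p 0.000614). In axis B neurons, where Bdnf did not pass the test, Homer1 (0.98, edgeR adjusted p 0.00552) and Egr1 (1.15, edgeR adjusted p 0.0242) were also higher in trained than in occluded, and Homer1 higher in trained than in control (0.89, edgeR adjusted p 0.0235).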

How the data were processed

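Single-cell RNA-seq of 6 libraries was used. Per the labels and the submitters' processing notes, the authors aligned reads to mm10 with Cell Ranger 2.0.0 and clustered cells with Seurat 2.2.1, and deposited raw UMI counts per gene and cell, a table with the library and cluster of each cell and its mitochondrial share as a fraction, and a normalized table that was not used here. The deposited counts kept barcodes with over 200 genes, and 1123 of 52549 barcodes had no cluster and were left out, as were 755 neurons outside the second annotation. Deposited cluster numbers differ from those of the study's own listing. They were used as deposited. The prefixes of trained cell names give the opposite library number to the per-cell library column, which was used.

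Counts were summed per library and cluster, or per cell class. edgeR 4.0.16 in R 4.3.3 (filterByExpr, TMM, glmQLFit, glmQLFTest) was fitted to all 6 libraries with condition as the factor, and genes with a Benjamini-Hochberg adjusted p under 0.05 were called. DESeq2 1.42.0 was an alternative, with others given at the end. The edgeR script was tested on simulated data. Shares of cells were also computed after thinning to 500 UMIs with a fixed seed. Intervals and limits from a count of 0 (3 counts) cover counting error only. Named genes were the 7 members, listed pathway genes that passed a test, the highest clusters of listed ligands and receptors, and the 3 genes most similar to each member among those with at least 20 CPM in a cluster. The members and lists were chosen with earlier results of these data known, and n08-PGC-3 and n12-GC-6 were left out of axis A after the data were seen. Results for some genes under this rule are not reported here. Gene positions came from RefSeq. Python 3.11.15, numpy 2.4.6, pandas 2.3.3 and matplotlib 3.10.9 were used.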

Additional observations from a re-analysis of the deposited data

Results flagged for a closer look

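Barcodes that no comparison used held UMIs of the 7 genes above the limit of 3 that a count of 0 allows. The 1123 barcodes without a cluster, with a median of 2327 UMIs, held 25 Bdnf, 1048 Ntrk2, 201 Ntrk3, 13 Ngfr, 73 Gfra1, 68 Gfra2 and 4 Ret UMIs. The 755 neurons left out of the second annotation held 53 Bdnf, 510 Ntrk2, 232 Ntrk3, 5 Ngfr, 41 Gfra1, 106 Gfra2 and 14 Ret UMIs. Bdnf was at 21.9 CPM in these neurons, between axis A neurons (16.4 ± 7.06 CPM) and axis B neurons (24.5 ± 5.16 CPM), and Ntrk2 in the barcodes without a cluster was at 347 CPM against 235 CPM in annotated cells of all types.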

How the results depend on the processing

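With 2 libraries per condition, depth limits Bdnf, Ngfr and Ret most, which have few UMIs per library. Most values kept their direction and side of the threshold over the alternatives. The cause of the changes below was not tested. Members called in cell classes in occluded against control went from 0 to 1 with no filter on low counts, where 226 of all 147587 pairs were called. In trained against occluded the 1 called member was lost with cells of at least 1000 UMIs, where 232 of all 73168 pairs were called. DESeq2 called 0 of 23 pairs there, and gave that member, Bdnf in axis A neurons, no adjusted p. The counts of both comparisons also changed with some libraries left out. Listed pathway genes called in clusters went from 6 to 0 (DESeq2), 2 (cells of at least 1000 UMIs), 3 (only the 2 groups compared) and 1 to 7 (a library left out) in occluded against control, from 3 to 1 (DESeq2) and 0 to 4 in trained against control, and from 10 to 2 (DESeq2), 6 (only the 2 groups compared) and 3 to 18 in trained against occluded.

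For Bdnf in axis A neurons the log2 fold change in occluded against control passed the edgeR threshold with no filter (-1.23, adjusted p 0.0139) and without n12-GC-6 (-1.91, adjusted p 0.0111). The cluster n12-GC-6 was left out after the data were seen, as a cluster rich in Bdnf, and its own occluded and control libraries overlapped. Without occluded replicate 1 the log2 fold change in axis A neurons was -1.73. It was -0.70 without n08-PGC-3 and -2.01 without both clusters, neither past the threshold, and lay within -1.73 to -0.81 over libraries left out, where the lone library of a condition is assumed to vary like the others. In trained against control it turned to -0.38 without n12-GC-6, was 0.89 without n08-PGC-3 and 0.39 without both, and ranged from -0.22 to 0.46 over libraries left out. In trained against occluded it was 1.28 with cells of at least 1000 UMIs and 0.95 to 1.87 over libraries left out.

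Among uncalled single-cluster values, Ntrk2 in Astro2 turned to 0.00094 (occluded against control), -0.14 (trained against control) and -0.14 (trained against occluded) with no filter and to -0.047 in trained against control with cells of at least 1000 UMIs, and over libraries left out ranged from -0.12 to 0.11, -0.39 to 0.26 and -0.36 to 0.29. Ret in n02-PGC-1 turned to 0.10 in occluded against control with cells of at least 1000 UMIs, from -0.35 to 0.12 over libraries left out. Over libraries left out, Ntrk3 in n17-M/TC-3 ranged from -0.25 to 0.079 (trained against occluded), Ngfr in Astro1 from -0.21 to 0.11, Gfra2 in n10-GC-4 from -0.35 to 0.94 (both occluded against control), and Gfra1 in OPC from -0.39 to 0.22, -0.37 to 0.11 and -0.33 to 0.30 in the 3 comparisons. The level of Ngfr in Astro1 was 14.01 CPM as a mean over single cells and 16.6 CPM from sums.

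The replicate number, which is also the sex of the pool, was not said to mark a litter or batch, and the deviations of same-numbered libraries had a median correlation of 0.0977, 0.0945 and 0.0641 over clusters and 0.136, 0.119 and 0.0859 over cell classes (over 0.1 in 5, 5 and 3 of 9 classes). With 2 libraries per condition and no such label it was not taken as a pairing. With it as a block, members called stayed at 0 in clusters and at 0, 0 and 1 in classes, pathway genes called were 6, 3 and 11, and Bdnf in axis A neurons was -1.21, 0.14 and 1.35 (edgeR adjusted p 0.0538, 0.956 and 0.00616).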
